A study of Arabidopsis thaliana with 8 samples.

Results

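The 4 wild-type (WT) libraries of Arabidopsis thaliana floral buds are described here, out of 8 libraries in the series. They were chosen by their label, WT rep1 to rep4, and every gene of the table was used, 33977 in all. Each library was made from total RNA of flower buds pooled from floral stages 8 to 10, and the labels call the 4 pools biological replicates. The study set these WT buds against line 4-3 of pSTK::amiRNACWIN24, in which an artificial microRNA is driven by the promoter of the ovule identity gene STK. Its stated interest was the role of cell wall invertase in ovule initiation. No library of that line is used below. The labels give the genotype of these plants as WT, with no allele or transgene. They name neither the background accession, nor the age of the plants, nor the number of buds or plants in a pool. The question is what a normal bud of these stages transcribes, and which genes differ from pool to pool when the genotype does not.

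A floral bud of these stages holds organs at different points of their growth. In the anther, the tapetum, a cell layer that lines the locule, feeds the developing microspores and makes sporopollenin precursors and later the lipids and proteins of the pollen coat. Inside the carpels the placenta forms ovule primordia. Pollen grains in their last phase before shedding switch on a set of genes for the pollen tube wall, among them pectin-modifying enzymes, arabinogalactan proteins and small secreted RALF peptides. Those late pollen genes belong to flowers older than the labelled stages.

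Levels are given in RPKM, reads normalised for transcript length and library size, so levels can be compared between genes. Between libraries the comparison is rougher, since the libraries differed in scale and in a trend with transcript length, as given below. The values moved in whole steps of 1 read, and the reads recovered this way were 25.5 M, 26.7 M, 25.7 M and 26.7 M in WT replicates 1 to 4. With 1 group of 4 pools there is nothing to test, so every value below is a description, and no p-value is given. A ± is the standard deviation over the 4 libraries, and the ratio of a gene is its highest WT library divided by its lowest. Where the lowest library held fewer than 3 reads, the value of 3 reads was put in its place when genes were counted and ranked.

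Of the 33977 genes, 8492 were listed at 0 in all 4 libraries and 19092 had a WT mean of 1 RPKM or more. At higher levels, 10349 genes reached a mean of 10 RPKM, 1052 genes 100 RPKM and 39 genes 1000 RPKM. The 10 genes with the highest mean held 5.19% of the summed mean RPKM, the 100 highest 18.6% and the 1000 highest 50.1%. Between 18835 and 19169 genes were at 1 RPKM or more in a single library, and 18212 were so in all 4. The number of genes detected thus differed little between the pools, while the RPKM summed over all genes was 565773 in replicate 1, 651104 in replicate 2, 636944 in replicate 3 and 612409 in replicate 4.

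The genes at the top belonged to photosynthesis, to the anther and to stress and storage proteins. RBCS1A (AT1G67090; chromosome 1, 25048158 to 25049667 in TAIR10), a small subunit of the carbon-fixing enzyme Rubisco, led the nuclear genes at 5253, 6897, 6238 and 6241 RPKM in replicates 1 to 4. The light-harvesting chlorophyll-binding gene LHCB1.3 followed at 5104 ± 366 RPKM and LHB1B2, of the same family, at 4272 ± 311 RPKM. Members of the RBCS and LHCB1 families are near-identical in sequence, so the split of reads among them is uncertain.

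Anther genes stood among these leaders. GRP19 (AT5G07550; chromosome 5, 2388225 to 2389249), an oleosin-like glycine-rich protein of the pollen coat, was at 2267, 3458, 2930 and 2967 RPKM and held the fourth place among the nuclear genes. ATA20, an anther gene, was at 2262 ± 470 RPKM, and the lipid-transfer gene AT1G66850 at 2112 ± 145 RPKM. MT2B, a metal-binding metallothionein, was at 2629 ± 332 RPKM, and VSP1, a vegetative storage protein of the jasmonate response, at 1695 ± 351 RPKM. The ratios of the 15 highest nuclear genes lay between 1.04 and 1.78, so none of the 15 reached 2-fold among the pools.

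**Figure D1:**
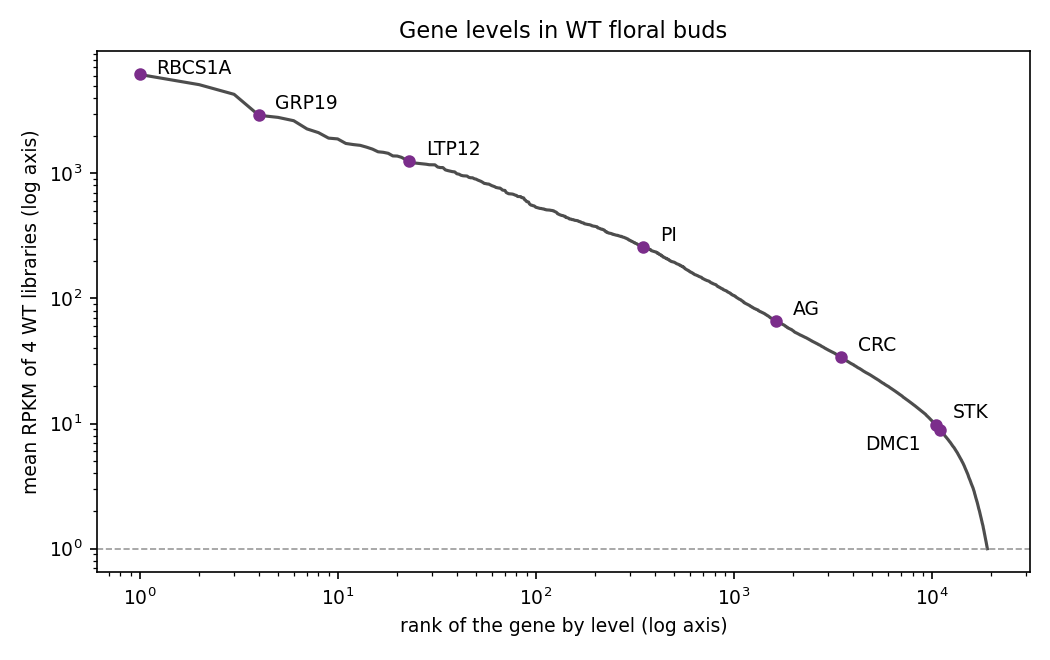
Genes with a WT mean of 1 RPKM or more, ranked by that mean, on log axes; the dashed line marks 1 RPKM and points mark named genes. RBCS1A heads the curve, the pollen coat gene GRP19 lies near it, and the ovule gene STK, at 9.82 RPKM, lies far down.

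Markers of the labelled tissue were present. Of 13 floral organ identity genes, 11 were at 1 RPKM or more and none of them reached a ratio of 2. Over all genes 8.09% did, and 2.89% of those at 50 to 100 RPKM, so 0 of 11 is near those shares. PISTILLATA (PI; AT5G20240), the MADS box gene of petals and stamens, was at 247, 286, 267 and 230 RPKM. SEP3, which combines with the other organ identity factors, was at 235 ± 22.6 RPKM, the petal and stamen gene AP3 at 170 ± 25.9 RPKM and the stamen and carpel gene AG at 66.0 ± 6.66 RPKM. The 2 members below 1 RPKM act earliest in the flower, LFY at 0.651 ± 0.230 RPKM and UFO at 0.0181 RPKM.

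All 19 genes of a carpel and ovule list were at 1 RPKM or more. CRC, needed for carpel and nectary growth, was highest at 33.8 ± 8.11 RPKM, followed by ANT, a growth regulator of ovule and other primordia, at 27.2 ± 7.25 RPKM. STK (AT4G09960; chromosome 4, 6236375 to 6241281) was at 8.41, 8.76, 11.2 and 10.9 RPKM, and BEL1, which sets the identity of ovule integuments, at 7.86 ± 0.374 RPKM. STK overlaps AT4G09950 in the annotation, and whether reads were counted by strand is not given in the sources used here.

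Among markers of other tissues, seed genes were mostly low or at 0, root genes were so in part, and leaf genes were high. Of 12 seed storage and seed regulator genes, 1 was at 1 RPKM or more, the albumin gene SESA4 at 0.998, 4.75, 3.50 and 3.47 RPKM, while SESA3, CRU3 and OLEO1 were listed at 0 in every WT library. Of 10 root genes 4 were at 1 RPKM or more, among them SCR and SHR, radial patterning factors also used in shoots. The root hair genes RHD6 and EXPA7 and the endodermal gene CASP1 were listed at 0 throughout. All 16 leaf and photosynthesis genes were at 185 RPKM or more, so photosynthetic transcripts separate these buds from roots and seeds but not from leaves.

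The anther lists bear on the stage as well. Of 14 meiosis genes 4 were at 1 RPKM or more, and the recombinase DMC1 was at 7.18, 8.80, 8.99 and 10.8 RPKM. The 8 pollen coat genes, in contrast, lay between 139 and 2905 RPKM in their means. Of 27 late pollen genes, 22 were at 1 RPKM or more, led by the pectin methylesterase VGD1 at 138 ± 38.2 RPKM. Late pollen transcripts were therefore present in pools labelled stages 8 to 10, at levels that differed widely between the pools, as given below. Whether older buds entered a pool was not tested.

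Some genes hardly moved. They were picked as the smallest ratios, so their evenness describes them and not the pools. Among nuclear genes averaging 10 RPKM or more the 10 smallest ratios lay between 1.0009 and 1.02. AT2G21220, a SAUR-like auxin-responsive gene, was at 10.8 RPKM in every library, on 238 to 261 reads. Counting error alone is 6.34% for this gene, wider than the spread seen. MTHFR2, a methylenetetrahydrofolate reductase of one-carbon metabolism, was at 74.5, 74.5, 74.5 and 73.8 RPKM on 4073 to 4462 reads per library. PFK1, a phosphofructokinase of glycolysis, was at 23.96, 24.11, 24.06 and 24.07 RPKM. The peroxisomal beta-oxidation gene MFP2 lay at 48.6 RPKM on average with a ratio of 1.01, and the vacuolar sorting receptor VSR4 at 31.7 RPKM with a ratio of 1.02.

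Of 20 genes in common use as references for quantitative PCR none reached a ratio of 2, against 8.09% of all genes at 1 RPKM or more. Their means lay between 19.0 and 955 RPKM, where that share was lower. It was 2.88% at 10 to 50 RPKM, 2.89% at 50 to 100 RPKM and 3.16% at 100 to 1000 RPKM. The 0 of 20 is near those shares. The median ratio of the 20 was 1.26, against 1.31 over all genes and 1.25, 1.26 and 1.2996 in those classes. In 3 of the 20 the ratio was 1.5 or more, against 25.5% of all genes. In those classes it was so for 1101 of 8122, 160 of 1175 and 192 of 1013 genes. The 3 were UBQ11 at 1.55, UBQ5 at 1.52 and EF1A at 1.5. EF1A, a translation elongation factor, was at 711, 991, 1047 and 1070 RPKM. Replicate 1 was the lowest library in 16 of the 20, and in 10 or 11 under the other scalings tried. Over all 19092 genes it was the lowest in 45.5%, and in 32.8% to 36.6% under those scalings, which were median-of-ratios, quantile and removal of the trend with exon length. TIP41-like, at 23.4, 25.2, 24.4 and 23.2 RPKM, had the smallest ratio of the list, 1.09, followed by RHIP1 at 1.11 and PP2AA3 at 1.11. The ubiquitin, tubulin and actin genes of the list have close copies, so their reads may be shared.

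The ratio could be formed for 19091 of the 19092 genes, since the mitochondria-encoded ATMG00990 was listed at 0 in replicate 2 and had no matched length. Its median over these genes was 1.31, and 1545 genes reached 2-fold (8.09%). The larger set at 1.5-fold or more held 4873 genes (25.5%), and 383 genes reached 4-fold (2.01%) and 134 reached 10-fold (0.702%). Leaving out replicate 1 lowered the count at 2-fold to 960 genes, and adding 1 RPKM to every value lowered it to 887 genes. Without any one of replicates 2, 3 and 4 the count was 1097, 1290 and 1261 genes.

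Most of the spread was not counting error. For each gene the coefficient of variation (SD over mean) was freed of the part that the number of reads gives, and its median was 10.7% over 18996 genes, against a median counting error of 4.06%. A value of 25% or more was found for 1961 genes (10.3%). Low genes varied more: the share at 2-fold or more was 30.5% between 1 and 2 RPKM, 16% between 2 and 5 RPKM and 2.88% between 10 and 50 RPKM. The variation beyond counting also fell over those classes, from a median of 17.38% to 9.26%.

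**Figure D2:**
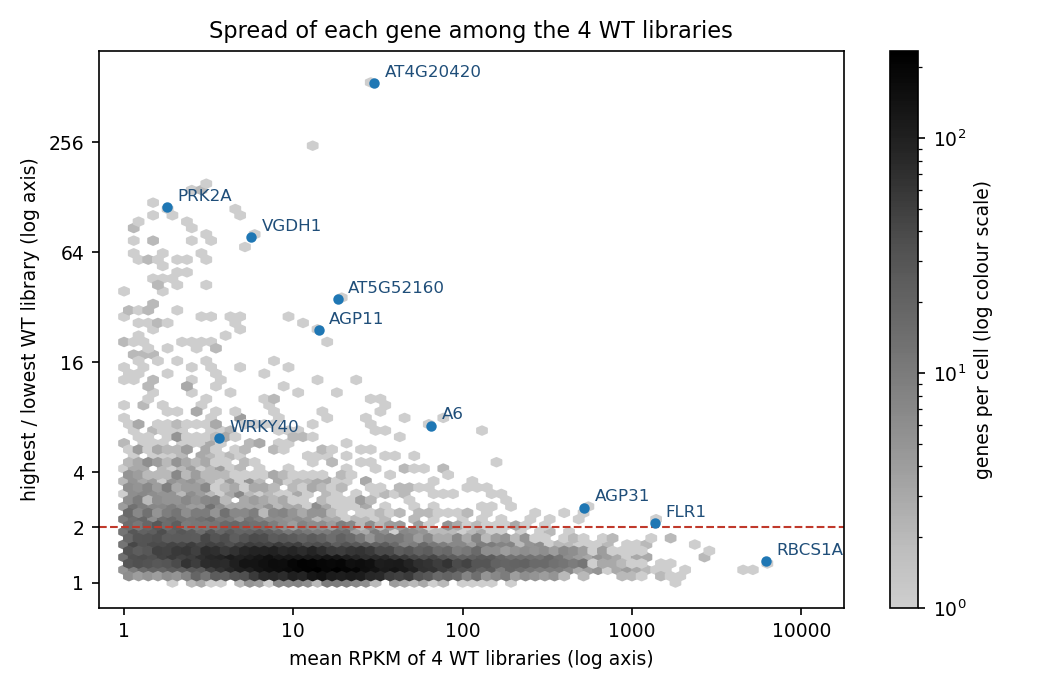
Ratio of the highest to the lowest WT library against mean RPKM for 19091 genes, on log axes, with the number of genes as grey level; the dashed line marks 2-fold and points mark named genes. Most genes lie below the line at a median of 1.31, and the named pollen and tapetum genes lie above it.

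The 4 pools were not equally far apart. Over genes with a mean of 1 RPKM or more, Pearson's r of log2(RPKM + 0.5) was 0.991 between replicates 3 and 4, and 258 genes differed at least 2-fold between them. Replicates 1 and 2 had r of 0.977 and 461 such genes. The other 4 pairs had r from 0.965 to 0.977 and 654 to 803 genes. These correlations run across genes, which are not independent replicates.

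Each of the 1545 genes was assigned to the libraries above the widest gap, on the log2 scale, in its 4 ordered values. Replicates 1 and 2 stood together above 3 and 4 in 409 genes, the most frequent arrangement. Replicate 1 alone stood below the others in 201 genes and above them in 174. Replicate 4 alone stood below in 186 genes, and replicate 2 alone above in 167 and below in 107. Replicate 3 alone stood below in 74 and above in 57, and replicates 3 and 4 together stood above 1 and 2 in 67.

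Counted by order alone, replicates 1 and 2 were both above 3 and 4 in 785 of the 1545 genes (50.8%), against 3049 of all 19092 (15.97%). The opposite order held in 238 of the 1545 (15.4%) and in 6049 of all (31.7%). Among the 134 genes at 10-fold or more, replicate 1 was highest in 94 and replicate 4 in 4, against 18.6% and 26.6% of all genes. Genes of large spread thus more often had 1 and 2 on top than 3 and 4, the reverse of the order over all genes in the values as deposited. Under the other scalings tried, replicate 1 was highest in 27.3% to 29.8% of all genes and replicate 4 in 22.8% to 27.8%. The order over all genes thus depends on the scaling.

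The 25 nuclear genes with the largest ratio had replicate 1 as the highest library in 21 cases, and 8 of the 25 overlap another gene. Where the other libraries are near 0, a gene passes the mean of 1 RPKM only through its high library. That holds here and among the genes at 10-fold or more, so such counts describe the genes selected and not the pools. VGDH1 (AT2G47030; chromosome 2, 19324134 to 19326484), a pectin methylesterase close to VGD1, was at 18.4, 3.78, 0.249 and 0.236 RPKM, on 1211, 236, 15 and 15 reads, a ratio of 77.7. PRK2A (AT2G07040), a receptor kinase of the pollen tube, was at 4.58, 2.32, 0.0406 and 0.231 RPKM, a ratio of 113 that rests on 3 reads in its lowest library. In both genes replicate 1 was highest, replicate 2 next, and replicates 3 and 4 low.

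A further set held nearly all its reads in replicate 1, with 3 reads or fewer in at least 1 other library. The pectin lyase-like gene AT5G48140 held 432 reads in replicate 1 against 10, 2 and 3 in the others. The pectate lyase gene AT5G15110 held 318 reads against 3, 0 and 1, the glycosyl hydrolase GH9A4 303 against 2, 1 and 3, and GLOX1, a glyoxal oxidase-related gene, 366 against 17, 0 and 3. In RPKM these were modest levels, 9.60 for AT5G48140, 5.69 for AT5G15110, 4.64 for GH9A4 and 5.78 for GLOX1. Each held over 300 reads in replicate 1, and its ratio is set by single reads in the other libraries. Each also reached the mean of 1 RPKM only through replicate 1.

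The late pollen list of 27 genes also had replicates 1 and 2 above 3 and 4 in its sum, but with replicate 2 highest. Of its 22 members at 1 RPKM or more, 10 reached 2-fold (45.5%, against 8.09% of all genes), with a median ratio of 1.88 against 1.31 over all genes. Summed over the 22, the level was 677, 766, 347 and 440 RPKM in replicates 1 to 4. Replicates 1 and 2 were both above 3 and 4 in 15 of the 22, against 15.97% of all genes, and in 16 to 18 of the 22 under the other scalings tried. In bulk RNA, more cells of a type and more RNA in each cell cannot be told apart.

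Among its members, AGP6 (AT5G14380), a pollen arabinogalactan protein, was at 69.5, 90.6, 21.3 and 32.6 RPKM, and its close relative AGP11 (AT3G01700) at 31.3, 20.3, 1.2998 and 3.46 RPKM. The ratios were 4.251 and 24.1, with replicate 3 lowest in both. PPME1, a pectin methylesterase of the pollen tube, was at 124, 122, 28.8 and 48.9 RPKM. The monosaccharide transporter STP9 was at 63.4, 104, 42.1 and 64.4 RPKM, so it was high in replicate 2 only. BCP1 (AT1G24520), a gene of pollen and tapetum, was at 11.7, 0.463, 0.213 and 0.202 RPKM and so was high in replicate 1 only.

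Not every pollen gene had replicates 1 and 2 on top. The germline regulator DUO1, a MYB factor of the generative cell, was at 1.39, 1.94, 2.29 and 1.94 RPKM, and MYB101, a factor of the pollen tube, at 21.1, 17.0, 21.8 and 22.1 RPKM. In both genes replicate 3 was above replicates 1 and 2. The actin-binding profilin PRF4 was at 44.1, 66.8, 45.3 and 44.2 RPKM, with replicate 2 alone on top.

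Gene families known from pollen, picked by words in the annotation after values were seen, also held many variable members. Of 17 RALF peptide genes at 1 RPKM or more, 13 reached 2-fold, and of 25 defensin-like and low-molecular-weight cysteine-rich genes 18 did. Self-incompatibility S1 family genes reached it in 6 of 7 cases and genes named for pectin in 34 of 125. Over all genes the share was 8.09%. The RALF, defensin-like and S1 members counted had median exon lengths of 865, 609 and 796 nt. In the shortest and next shortest of 10 classes of exon length the share over all genes was 21.3% and 12.1%. A member near 0 in the other libraries also passes the mean of 1 RPKM only through its high library. The counts therefore describe the genes selected and not the pools. Groups not chosen for pollen ranged from 0 of 58 photosystem, light-harvesting or chlorophyll genes and 4 of 326 ribosomal protein genes to 15 of 46 late embryogenesis abundant genes, 15 of 26 peroxidase genes and 4 of 7 laccase genes. RALFL8 was at 239, 253, 91.0 and 103 RPKM and RALFL9 at 237, 237, 79.9 and 92.5 RPKM. These neighbours are close copies that both overlap AT1G61565, so their separate values are uncertain.

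Tapetum genes ran the other way. Of 21 tapetum and pollen wall genes 19 were at 1 RPKM or more, and 13 of those reached 2-fold (68.4%, against 8.09% of all genes), with a median ratio of 3.70 against 1.31. Replicates 3 and 4 were both above 1 and 2 in 13 of the 19, against 31.7% of all genes, and in 12 to 14 of the 19 under the other scalings. Replicate 3 was the highest library in 15, against 26.6% of all genes, and replicate 2 the lowest in 12, against 24.8%. The sum over the 19 was 1432, 1797, 2524 and 2078 RPKM, of which LTP12 alone supplied the larger share.

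The enzymes of sporopollenin synthesis stood out among them. LAP5 (AT4G34850; chromosome 4, 16608204 to 16609829), a polyketide synthase of the pathway, was at 16.4, 7.46, 59.4 and 21.5 RPKM. Its partner LAP6 (AT1G02050) was at 39.0, 17.43, 76.4 and 49.7 RPKM, and ACOS5, the acyl-CoA synthetase that starts the pathway, at 23.8, 11.04, 59.0 and 24.99 RPKM. The ratios were 7.96, 4.38 and 5.34, and in all 3 genes replicate 3 was highest and replicate 2 lowest. LAP5 overlaps AT4G34840 and AT4G34860.

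Further members varied too, not all with the same extremes. The fatty acid hydroxylase CYP703A2 was at 13.9, 7.68, 29.3 and 24.6 RPKM, and the exporter ABCG26 at 8.53, 3.69, 15.1 and 12.4 RPKM. CYP704B1, which hydroxylates longer fatty acids, was at 10.8, 8.64, 34.1 and 26.3 RPKM. A6 (AT4G14080), a glucanase-like tapetum gene, was at 47.5, 17.59, 127 and 69.0 RPKM, a ratio of 7.2005. MS2, a fatty acyl reductase, was at 42.0, 25.5, 81.7 and 83.5 RPKM, so here replicate 4 was highest. Among regulators, AMS was at 31.3, 37.6, 58.8 and 50.8 RPKM and MYB80 at 0.606, 0.377, 2.70 and 0.333 RPKM.

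Other tapetum genes stayed below 2-fold, and the smallest ratio of the list, 1.28, lay under the all-gene median of 1.31. The lipid-transfer gene LTP12 (AT3G51590) was at 916, 1340, 1436 and 1289 RPKM, the sugar transporter SWEET8 at 102, 135, 163 and 132 RPKM and the tetrad-separating polygalacturonase QRT3 at 48.7, 70.6, 54.7 and 58.9 RPKM. Their ratios were 1.57, 1.60 and 1.45. Callose synthase CALS5, which makes the wall around the tetrads, was past 2-fold but in the opposite order, at 4.65, 2.58, 1.26 and 1.82 RPKM. In the pollen coat list no gene reached 2-fold, against 8.09% of all genes and 3.16% of those at 100 to 1000 RPKM. Its 8 genes had ratios from 1.39 to 1.86, a median of 1.52, with replicate 1 lowest in all 8, or in 7 after quantile normalization. Over all genes replicate 1 was lowest in 45.5%, or in 35.8% after that normalization.

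Over all genes at 2-fold or more, 57 stood high in replicate 3 alone, LAP5 and ACOS5 among them. Examples outside the list were singled out after values were seen. The lipid-transfer gene AT5G52160 was at 1.65, 4.77, 58.6 and 8.01 RPKM, a ratio of 35.5. AT5G44540, annotated as tapetum-specific protein TAP35/TAP44, was at 15.6, 12.8, 88.3 and 8.52 RPKM. The other gene of that annotation, AT4G20420, was at 17.5, 14.8, 88.2 and 0 RPKM. Its last value, 0 reads where replicate 3 had 1532, gave the largest ratio of all genes. At a floor of 3 reads in replicate 4, the gene was at least 539-fold higher in replicate 3. AT4G20420 overlaps AT4G20430, the counting of overlapping genes is not given in the sources used here, and its part in the 0 was not tested.

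**Figure D3:**
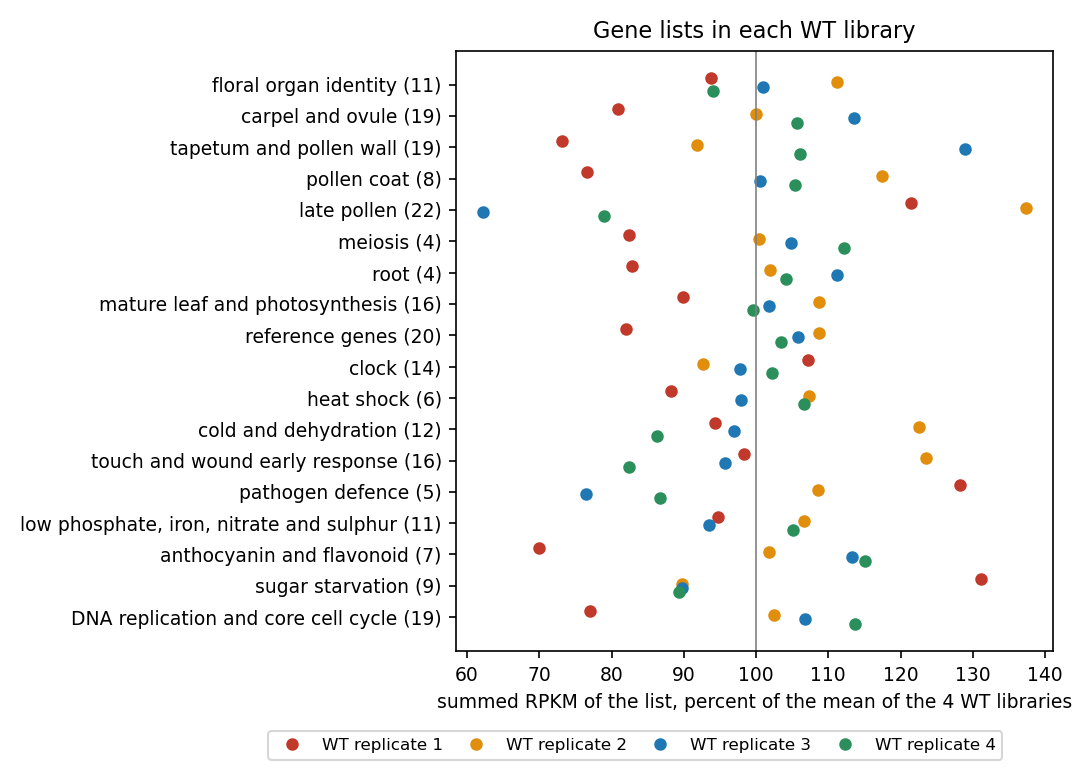
Summed RPKM of each gene list in each WT library, as a percent of the mean of the 4 libraries; numbers in brackets are list members at 1 RPKM or more, and each colour is 1 library. Late pollen genes are high in replicates 1 and 2, tapetum genes in 3, sugar starvation genes in 1, and cell cycle genes are lowest in 1.

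Genes of the early response to touch and wounding were highest in replicate 2. These genes for signalling proteins and transcription factors are switched on within minutes of handling, and many carry W-boxes, the binding site of WRKY factors. Of 17 listed genes 16 were at 1 RPKM or more and 11 of the 16 reached 2-fold (68.8%, against 8.09% of all genes), with a median ratio of 2.36 against 1.31. Replicate 2 was the highest library in 15 of the 16, against 28.2% of all genes, and in 13 or 14 under the other scalings. Replicate 4 was the lowest in 13, against 18.4% of all genes. Without replicate 2, and equally without replicate 4, 4 members remained at 2-fold or more.

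The W-box core TTGAC, on either strand, was found in the 250 bases before the annotated start of 13 of the 17 genes (76.5%), against 44.2% of 18783 protein-coding genes at 1 RPKM or more and 48.0% of the 1445 of them at 2-fold or more. The 3 promoter windows below were picked only among members that hold a core, for large ratios or for the most cores. CML38, with 1 core and a larger ratio than ZAT10, is not shown. JAZ5, TCH3, ERF6 and TCH2 hold no core and could not be picked. They run 5′ to 3′ along the gene's strand and were read from the RefSeq TAIR10.1 genome, with capitals for TTGAC or its complement GTCAA. WRKY40 and ZAT10 hold 1 core and WRKY33 holds 2. A match describes the letters only and is no evidence of binding.
WRKY40 (chr1:30383311-30383560, plus strand): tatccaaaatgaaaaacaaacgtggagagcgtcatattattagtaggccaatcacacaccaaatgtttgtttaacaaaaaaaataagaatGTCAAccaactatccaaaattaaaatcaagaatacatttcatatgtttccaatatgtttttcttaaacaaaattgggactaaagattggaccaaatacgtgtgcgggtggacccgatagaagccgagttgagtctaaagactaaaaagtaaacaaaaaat
ZAT10 (chr1:9649324-9649573, minus strand): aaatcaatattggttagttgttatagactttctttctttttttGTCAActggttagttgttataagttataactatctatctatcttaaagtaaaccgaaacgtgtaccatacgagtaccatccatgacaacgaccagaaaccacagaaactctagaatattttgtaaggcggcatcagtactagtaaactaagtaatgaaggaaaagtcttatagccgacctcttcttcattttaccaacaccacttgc
WRKY33 (chr2:16107985-16108234, plus strand): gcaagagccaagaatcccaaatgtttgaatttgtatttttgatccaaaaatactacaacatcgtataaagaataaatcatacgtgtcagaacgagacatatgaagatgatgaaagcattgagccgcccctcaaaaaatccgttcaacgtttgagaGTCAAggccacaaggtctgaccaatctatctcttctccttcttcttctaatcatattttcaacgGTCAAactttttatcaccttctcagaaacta

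The values of these genes were as follows. WRKY40, a WRKY factor of the defence response, was at 2.98, 7.64, 2.70 and 1.24 RPKM, a ratio of 6.17. ZAT10, a zinc finger repressor of the stress response, was at 6.59, 15.3, 4.68 and 3.83 RPKM. WRKY33, a WRKY factor of the response to fungi, was at 7.18, 11.8, 6.61 and 4.47 RPKM. In all 3 genes replicate 2 was highest and replicate 4 lowest. JAZ1, a repressor of jasmonate signalling, was at 25.9, 40.04, 20.8 and 15.2 RPKM and had that order too. WRKY40 and WRKY33 overlap other genes in the annotation.

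Further members behaved alike. The calmodulin-like gene CML38 was at 2.28, 7.82, 2.43 and 1.37 RPKM, and XTH22, a wall-modifying enzyme induced by touch, at 15.7, 28.4, 15.01 and 7.70 RPKM. The calmodulin-like genes TCH2 and TCH3, named for touch, had ratios of 2.05 and 1.89. LOX2, a lipoxygenase of jasmonate synthesis and the most abundant member at 279 ± 18.18 RPKM, had a ratio of 1.16. Over all genes, 167 of the 1545 had replicate 2 alone on top, and 88 of their 167 promoter windows held the core (52.7%). That is near the shares for genes with replicate 1 alone on top (50%) and with 1 and 2 on top (50.7%).

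Cold and dehydration genes also peaked in replicate 2, in 11 of 12 members at 1 RPKM or more, or 9 to 11 under the other scalings, against 28.2% of all genes with replicate 2 highest. At 2-fold were 2 of the 12 (16.7%, against 8.09% of all genes), and 1 without replicate 2 or with 0.5 or 1 RPKM added. With so few members nothing is read from this count. KIN2, a small protein of the cold response, was at 688, 848, 638 and 556 RPKM, and the dehydrin ERD10 at 115, 173, 124 and 107 RPKM. KIN1 and KIN2 are close copies. The dehydrin LTI30 was instead high in both replicates 1 and 2, at 4.47, 3.63, 1.40 and 1.03 RPKM. Of 6 heat shock genes at 1 RPKM or more none reached 2-fold, and of 14 clock genes 1 did, both near the 8.09% of all genes. The clock gene past 2-fold was ELF4, an evening gene, at 4.37, 7.86, 4.22 and 3.46 RPKM. The morning gene CCA1 was at 14.9, 10.14, 10.98 and 12.2 RPKM.

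Replicate 1 was the lowest library in 18 of 19 DNA replication and cell cycle genes, against 45.5% of all genes, and in 14 to 19 under the other scalings. None of the 19 reached 2-fold, against 8.09% of all genes and 2.88% of those at 10 to 50 RPKM, so 0 of 19 is near those shares. TSO2, a subunit of ribonucleotide reductase, was at 43.4, 73.7, 69.5 and 66.8 RPKM, and the cytokinesis syntaxin KNOLLE at 36.5, 58.6, 52.8 and 59.0 RPKM. Replicate 1 was also lowest in 18 of the 19 carpel and ovule genes, and in 12 to 14 under the other scalings. It was lowest in 264 of 326 ribosomal protein genes as well. In the carpel and ovule list 4 genes reached 2-fold (21.1%, against 8.09% of all genes), CUC2, INO, HEC1 and STY1. Only 1 did so without replicate 1 or with 1 RPKM added, 2 under median-of-ratios scaling, with 0.5 RPKM added, with the length trend removed or without replicate 3, 3 without replicate 2 and 5 after quantile normalization. CUC2, which marks organ and ovule boundaries, was at 3.77, 5.98, 8.11 and 7.36 RPKM. INO, a gene of the outer integument of the ovule, was at 2.13, 1.11, 3.42 and 3.01 RPKM, on 37 to 110 reads.

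The scale of this library bears on such counts. Its recovered reads came to 25.5 M on a denominator of 29.1 M. In replicates 2 to 4 they came to 26.7 M on 27.6 M, 25.7 M on 26.6 M and 26.7 M on 28.0 M. The median gene of replicate 1 lay 0.07 below its mean over the 4 libraries on the log2 scale, while the median gene of the others lay 0.01 to 0.04 above. In all 7 flavonoid genes at 1 RPKM or more replicate 1 was again the lowest, against 45.5% of all genes, and in 6 of the 7 under each other scaling. Chalcone synthase (CHS), the entry enzyme of the flavonoid pathway, was at 180, 259, 309 and 304 RPKM.

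Genes that reached 2-fold with replicate 1 alone at the bottom included several of the cell surface. FLR1 (AT3G12145; chromosome 3, 3874487 to 3876302), a leucine-rich repeat protein, was at 788, 1573, 1669 and 1458 RPKM. AGP31 (AT1G28290), an arabinogalactan protein, was at 252, 579, 614 and 646 RPKM, and PDF1 (AT2G42840), a protein of the outer cell layer, at 279, 458, 620 and 612 RPKM. Their ratios were 2.12, 2.57 and 2.22, and the other 3 libraries lay close together in FLR1 and AGP31. These genes were chosen after values were seen, as the highest of that arrangement.

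Sugar starvation genes, which are switched on in the dark or when carbon runs short, had their highest sum in replicate 1. Replicate 1 was the highest library in 6 of the 9, against 18.6% of all genes, and replicate 2 in 3, DIN9 and DIN2 among them. Under each other scaling replicate 1 was highest in 7 of the 9, against 27.3% to 29.8% of all genes. Of 9 members, 4 reached 2-fold, against 8.09% of all genes, and 1 did so without replicate 1. DIN6, asparagine synthetase, was at 116, 50.2, 86.0 and 65.0 RPKM, and DIN1, a dark-inducible gene of senescence, at 46.8, 28.0, 22.6 and 19.9 RPKM. DIN2, a beta-glucosidase, was at 4.62, 4.89, 0.290 and 0.229 RPKM, so it was high in both replicates 1 and 2. The sum over the 9 was 448 RPKM in replicate 1 and 305 to 306 RPKM in the others.

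Pathogen defence genes were low, with 5 of 10 genes at 1 RPKM or more. PR2, a glucanase of the salicylic acid response, was at 10.2, 2.97, 3.44 and 1.62 RPKM, and PR5, a thaumatin-like protein of the same response, at 5.36, 2.98, 2.48 and 1.56 RPKM. Both were highest in replicate 1, while PR1 was at 0.0402 RPKM in replicate 2 and listed at 0 in the others.

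Transcripts of the organelle genomes were scarce in these libraries and were highest in replicate 1. No source used here names the library selection, and its part in these levels and their spread was not tested. The chloroplast-encoded genes summed to 687, 204, 219 and 417 RPKM. Of 61 such genes at 1 RPKM or more, 42 reached 2-fold, against 8.09% of all genes, and 44 had replicate 1 as the highest library, against 18.6% of all genes. The last share was 27.3% to 29.8% under the other scalings, for which the chloroplast genes were not counted. The gene for the D1 protein of photosystem II, psbA (ATCG00020), was at 161, 25.6, 21.3 and 96.9 RPKM, and rbcL (ATCG00490), for the large subunit of Rubisco, at 107, 16.7, 16.3 and 33.5 RPKM. In both, replicate 1 was highest, replicate 4 next and replicates 2 and 3 low, an order found in 35 of the 61. Of 35 mitochondria-encoded genes 24 reached 2-fold and 23 were highest in replicate 1. The nuclear RBCS1A had its lowest value in that library.

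The gene AT2G01021 (chromosome 2, 6571 to 6672), annotated as an uncharacterized protein with 102 nt of exon, was at 331, 51.2, 59.4 and 50.02 RPKM, again with replicate 1 apart. It was singled out after its values were seen. Its exon is shorter than the 125 bp reads, and where the reads assigned to it come from was not tested.

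In a pair of stress-related genes replicate 4 stood low. SAG21 (AT4G02380), a late embryogenesis abundant protein of senescence, was at 58.0, 39.8, 16.4 and 5.94 RPKM, a ratio of 9.78. RAP2.6 (AT1G43160), an ethylene response factor, was at 26.0, 11.7, 15.2 and 2.02 RPKM, a ratio of 12.9 with 59 reads in the lowest library. Both had replicate 1 on top and replicate 4 at the bottom.

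A few genes of secondary walls had replicate 3 lowest. The laccases IRX12 (AT2G38080) and LAC17, which polymerise lignin, were at 48.4, 72.5, 17.8 and 35.3 RPKM and at 30.6, 44.7, 9.56 and 23.8 RPKM. IRX15, a gene of xylan synthesis, was at 4.96, 8.41, 2.70 and 4.74 RPKM. In all 3 replicate 2 was highest and replicate 3 lowest, with ratios of 4.07, 4.67 and 3.11. Of all 7 laccase genes at 1 RPKM or more, 3 were lowest in replicate 3 and 3 in replicate 1, so these examples stand for themselves and not for the family. Both the replicate 4 and the replicate 3 examples were singled out after values were seen.

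**Figure D4:**
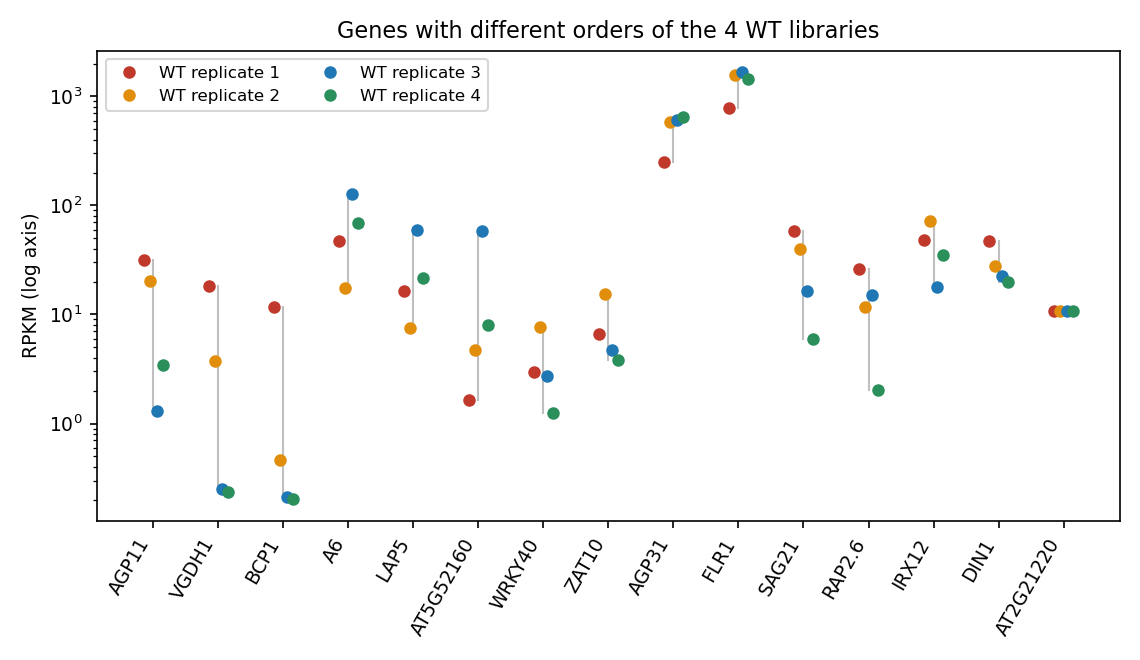
RPKM of 15 genes in each WT library, on a log axis; each colour is 1 library and grey lines join the lowest and highest. AGP11, VGDH1 and BCP1 are high in replicates 1 or 2, A6, LAP5 and AT5G52160 in replicate 3, WRKY40 and ZAT10 in replicate 2, and the SAUR-like AT2G21220 has 4 points at 10.8 RPKM.

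Transcript length went with the library in a graded way. Genes were placed in 10 classes of exon length, and the deviation of each library from the mean of the 4 was taken on the log2 scale. In the shortest class, with a median of 741 nt, the median deviation was 0.13 in replicate 2 and -0.10 in replicate 4. In the longest, with a median of 3846 nt, it was -0.21 in replicate 2 and 0.11 in both replicates 1 and 4. Replicate 3 stayed between 0.00 and 0.06 in every class. The shortest class also held the largest share of 2-fold genes, 21.3%, against 4.16% in the longest. The 107 genes with replicate 2 alone at the bottom had a median length of 2404 nt, against 1252 nt over all 1545. Removing the trend with length left 1411 genes at 2-fold or more, of which 1289 were among the 1545. Whether RNA integrity or library preparation differed between the pools was not tested.

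**Figure D5:**
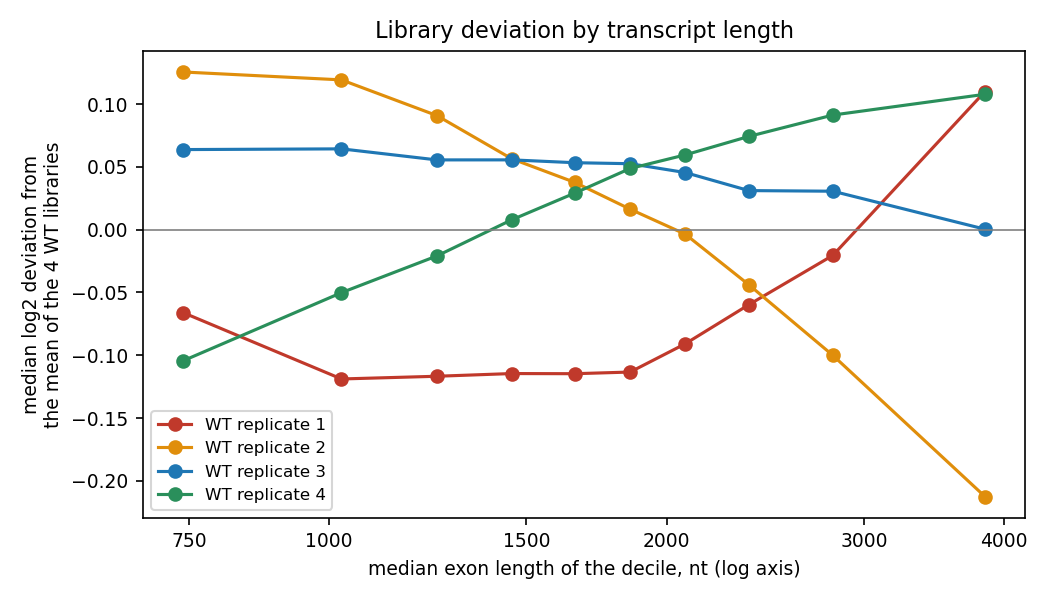
Median log2 deviation of each WT library from the mean of the 4 libraries, in 10 classes of exon length plotted at their median length on a log axis. Replicate 2 runs from 0.13 down to -0.21 with length, replicate 4 runs upward from -0.10 to 0.11, and replicate 3 stays nearly level.

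Some large ratios belonged to overlapping genes that were listed at 0 in 1 library. Of nuclear genes at 1 RPKM or more, 9 were at 0 in exactly 1 library and at 1 RPKM or more in the other 3, and all 9 overlap another gene, against 32.2% of all such genes. AT1G17820 held 457, 0, 226 and 204 reads in replicates 1 to 4, and the non-coding RNA gene AT1G09487 held 0, 695, 251 and 438 reads. All other 3 libraries of both genes held more than 200 reads. The values at 0 are given as listed, and their origin was not tested.

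Genes at the edge of the 2-fold rule show what it separates. Just inside lay YSL1, a metal-nicotianamine transporter, at 21.4, 17.2, 14.7 and 10.7 RPKM, and the fasciclin-like AT5G16920 at 89.6, 114, 179 and 150 RPKM. Just outside lay the small heat shock gene AT1G59860 at 1.06, 2.12, 1.82 and 1.77 RPKM and the stress-induced AT2G15960 at 112, 93.4, 67.0 and 56.3 RPKM. The rule draws no break between these pairs.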

How the data were processed

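RNA of pooled WT floral buds was sequenced as 125 bp paired ends at a stated 30 M reads, per the labels' protocols. The authors deposited RPKM values for 33977 genes, 1 column per library, per the file headers. The position of each gene was taken from the deposited comparison table as another measure, used only to match gene models. The submitters' processing notes name TAIR10 as the build. No source used here names the aligner, counter, annotation, strand setting or library selection. Of the genes, 32548 matched RefSeq TAIR10.1 models and 32532 had the same coordinates.

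Samples were grouped by title. Denominators of 29.1 M, 27.6 M, 26.6 M and 28.0 M for replicates 1 to 4 made 99.7% of values under 1000 reads whole within 0.05 in each library. Whether a unit is a read or a pair is not stated. Floors of 3 reads cover counting error only. p-values were not computed, since there is 1 group. Replicates are labelled biological, with no batch or date given.

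The members, the 19 gene lists (292 genes matched of 297 symbols) and the alternatives were chosen with earlier results of these data known. Named genes are the 15 highest nuclear genes, the 25 largest and 10 smallest ratios, up to 4 by level and 3 by ratio from each list and the organelle genomes' 5 highest each, and genes next to a threshold, 167 in all. Other list members and the genes said to be singled out were chosen after their values were seen. Lists were summed over members at 1 RPKM or more. Alternatives were pseudocounts of 0.5 and 1 RPKM, a minimum of 5 RPKM or none, median-of-ratios scaling, quantile normalization, removal of a spline of 4 degrees of freedom on exon length, exclusion of overlapping genes, and each library left out. The scripts were tested on simulated data. The tools were Python 3.11.15 with pandas 2.3.3, numpy 2.4.6, patsy 1.0.2 and matplotlib 3.10.9.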

Additional observations from a re-analysis of the deposited data

Results flagged for a closer look

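In each result below 1 of the 4 libraries lay so far from the rest that its gap to the nearest exceeded Dixon's critical value. Of 144 named genes and measures examined, 17 did so, and chance gives such a gap in about 1 of 20 groups. Many of these genes were named for their spread over the same 4 values, so the number found cannot be read against that rate. Over all genes at 1 RPKM or more the share was 5.43%.

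Replicate 1 stood apart in 9. It was high in the summed sugar starvation list at 448 RPKM, in BCP1 at 11.7 RPKM, in GLOX1 at 5.78 RPKM, in GH9A4 at 4.64 RPKM, in the pectate lyase gene AT5G15110 at 5.69 RPKM, in the pectin lyase-like AT5G48140 at 9.60 RPKM and in AT2G01021 at 331 RPKM. It was low in the phosphatase subunit PP2AA3 at 25.7 RPKM and in AGP31 at 252 RPKM.

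Replicate 2 stood high in 4, at 269 RPKM in SEP3, 7.82 RPKM in CML38, 66.8 RPKM in PRF4 and 0.0402 RPKM in PR1, the last a single read against 0 reads in the others. Replicate 3 stood high in 3 anther genes, at 88.3 RPKM in AT5G44540, 58.6 RPKM in AT5G52160 and 2.70 RPKM in MYB80. Replicate 4 was low in MTHFR2 at 73.8 RPKM, where all 4 values lay within a ratio of 1.01.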

How the results depend on the processing

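No paired analysis was possible because the results come from no test and concern 1 group. The 100 highest genes held 18.6% of the summed RPKM on average, and 22.6% when overlapping genes were left out. It stayed within the spread between libraries under the other alternatives, at 18.4% to 18.8% with 1 library left out. The count of genes at 1 RPKM or more ranged from 19020 to 19136 with 1 library left out.

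The 1545 genes at 2-fold or more became 887 with 1 RPKM added, 521 at a minimum mean of 5 RPKM and 3941 with no minimum, and 960 to 1290 with 1 library left out. The 1961 genes with a variation of 25% or more beyond counting became 810 at a minimum of 5 RPKM and 4856 with no minimum, and 1656 to 2420 with 1 library left out. The 785 genes with replicates 1 and 2 both above 3 and 4 became 300 and 1489 under the same limits, and 681 to 819 with 1 library left out. Median-of-ratios scaling gave 1550 genes at 2-fold, 1439 of them shared, and quantile normalization 1599, 1464 of them shared.

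At low levels depth limits the ratio. The median counting error was 12.6% between 1 and 2 RPKM and 1.25% between 100 and 1000 RPKM, and 20 of the 25 largest ratios had fewer than 3 reads in a library.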
